A study of Mus musculus with 20 samples.

Results

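Lipases split the ester bonds of stored and circulating fats. The genes described here are 10 lipases and lipase partners of the liver, chosen by name: hepatic lipase (Lipc), lipoprotein lipase (Lpl), endothelial lipase (Lipg), lysosomal acid lipase (Lipa), hormone-sensitive lipase (Lipe), monoglyceride lipase (Mgll), the patatin-like phospholipases Pnpla2, Pnpla3 and Pnpla8, and the Pnpla2 activator Abhd5. They are 10 of the 21164 gene symbols on the array, read by 19 of its 41174 different probes. All 20 samples were livers of male mice of the inbred strain C57BL/6J. Fat supplied 60% of the calories in their feed from weaning until the liver was taken at 6 weeks of age. By the labels, 10 were prone to obesity on this diet (responders) and 10 resisted it (non-responders). None of these samples is from another diet, and the labels carry no body weights, no feeding state and no animal identifiers, so each p-value reflects only how far these samples spread, part of which may be technical.

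Lipases of the liver act in several settings. Lipc, made by hepatocytes, and Lpl and Lipg are secreted and work at the vessel surface, Lpl on triglycerides of chylomicrons and very-low-density lipoproteins, Lipc on remnants and high-density lipoproteins, and Lipg mostly on phospholipids of high-density lipoproteins. Inside the cell, Pnpla2 (adipose triglyceride lipase) with its activator Abhd5 starts the breakdown of droplet triglyceride, Lipe takes diglycerides and cholesteryl esters, and Mgll completes the release of fatty acids from monoglycerides. Lipa degrades the lipids that reach the lysosome, and Pnpla8 is a phospholipase of mitochondrial and peroxisomal membranes.

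Each sample was hybridised to 1 single-colour array. Values are log2 signals relative to the 75th percentile of the same array, so a value of 0 lies at that percentile. They compare livers at 1 probe, not one probe with another. The exception is the summed linear signal of a list, given below as a description, in which bright probes weigh most. The arrays came in 2 slide series, the first with 6 non-responders and 4 responders, the second with 4 non-responders and 6 responders. Differences are responder minus non-responder with slide series in the fit, and p-values are from limma with Benjamini-Hochberg adjustment over all 17200 genes tested. No gene passed an adjusted p of 0.05 (0%), and 1371 had an unadjusted p under 0.05 (7.97%). In this fit 48.8% of all genes were higher in responders, the share to set beside the counts of signs below. Hepatocyte markers were in place: the 9 of 10 that could be tested were well above background on all arrays.

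Of the 10 genes, 9 could be tested. The fitted difference was positive for 4 and negative for 5 (plain group means were higher for 3 and lower for 6, since Lipa changes sign without the series term), with a median of -0.05 against -0.0032 over all genes. Both slide series gave 1 sign for 5 of the 9 (Lipc, Lpl, Lipg, Pnpla2 and Pnpla8), and for 48.8% of all genes. An unadjusted p under 0.05 was reached by 4 of the 9: Lipc was higher, and Lpl, Pnpla2 and Pnpla8 were lower. Over all genes the share was 4.24% in the higher direction and 3.73% in the lower. None of the 9 passed the adjusted threshold, so these are differences in the means of these livers, not calls.

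**Figure D1:**
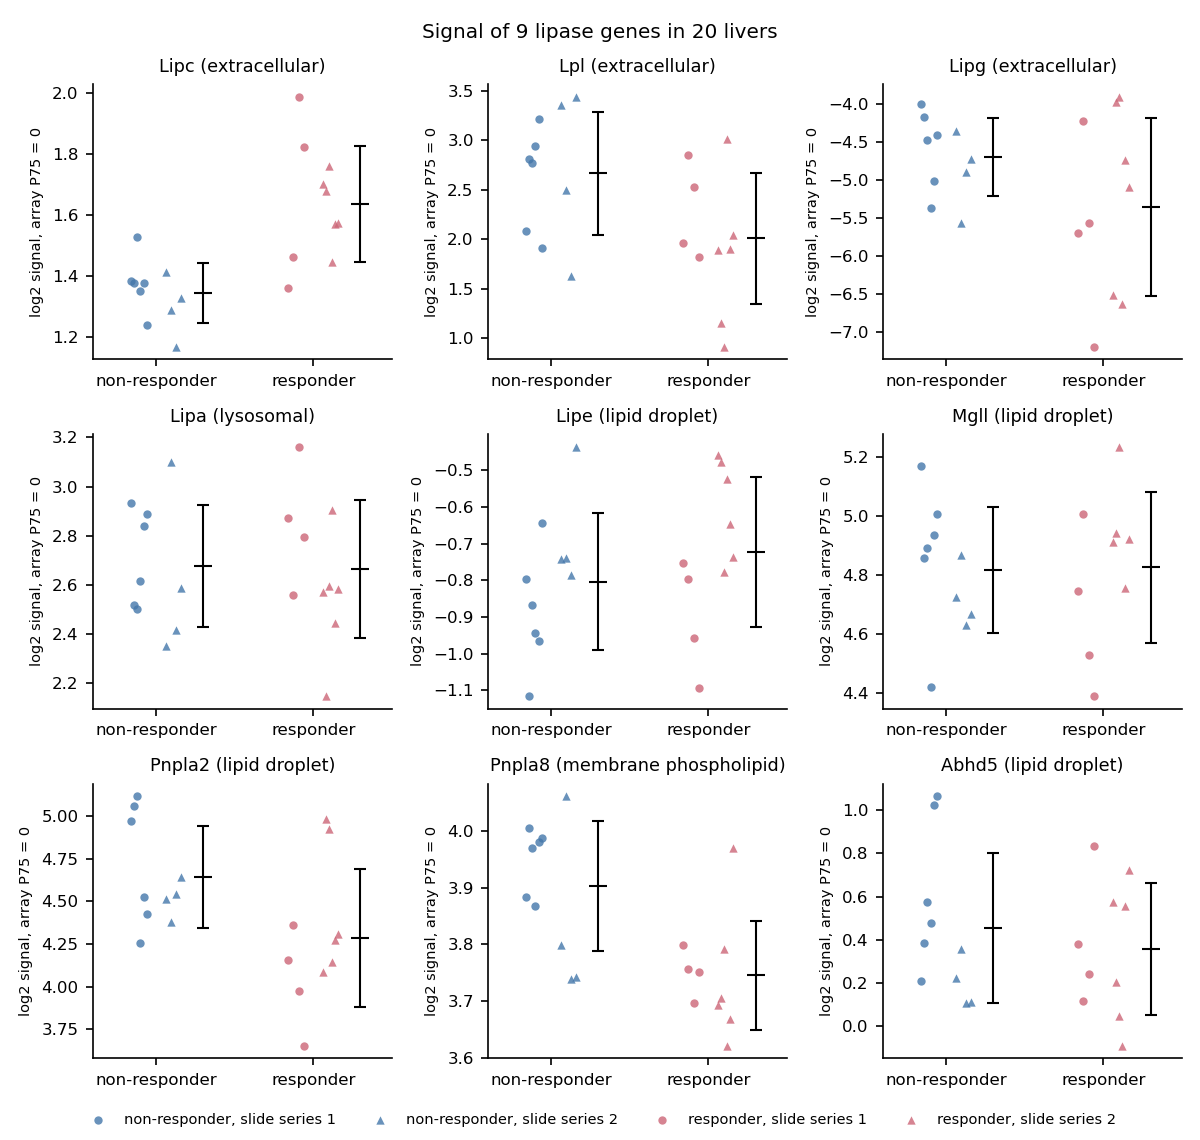
Log2 signal of the 9 tested lipase genes in each liver, relative to the 75th percentile of its array, by group. Circles are the first slide series and triangles the second, and the bar is the mean ± SD over 10 livers (9 responders for Mgll). For Lipc, 7 responders lie above all non-responders, while the groups overlap along most of their range for Lipa, Lipe and Mgll.

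Hepatic lipase stood out among the secreted enzymes. Its single probe, A_51_P263993, starts at base 1020 of the transcript and aligns to the minus strand at chr9:70660699-70664375 (mm9), which spans 3677 bases for a 60-base probe, so it crosses an exon junction in the spliced RNA. It is shown because the Lipc values rest on this probe alone.
Lipc A_51_P263993: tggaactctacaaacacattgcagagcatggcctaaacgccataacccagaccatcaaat

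Lipc signal ranged from 1.17 to 1.53 in non-responders, with a median of 1.36, and from 1.36 to 1.99 in responders, with a median of 1.62. The ranges overlapped from 1.36 to 1.53, and 5 of the 10 non-responders lay above the lowest responder. Still, 7 responders were above every non-responder, and 9 of 10 were above the non-responder mean of their own slide series. The means were 1.64 ± 0.19 for responders and 1.34 ± 0.10 for non-responders (SD, n = 10 per group). The difference was 0.30 (SE 0.07, 95% interval 0.15 to 0.46), or 1.23-fold, with an unadjusted limma p of 0.00053, the 16th smallest of all genes, and an adjusted p of 0.490. An exact permutation test within slide series, two-sided over 44100 arrangements, gave p = 0.000454, unadjusted for the number of genes. The difference was 0.28 (SE 0.13) in the first series and 0.32 (SE 0.09) in the second, and the term for a difference between series had p = 0.795 in limma. Leaving out any single array gave 0.25 to 0.35. Normexp background correction moved the value to 0.09 (SE 0.16).

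Lpl, which in adult liver comes largely from cells other than hepatocytes, showed a wide spread. Its brighter probe, A_51_P259296, ranged from 1.63 to 3.44 in non-responders, with a median of 2.79, and from 0.92 to 3.01 in responders, with a median of 1.93. The groups overlapped over most of this range. Only 2 responders fell below all non-responders, no responder exceeded the highest non-responder, and 8 of 10 were under the mean of the non-responders on the same slide series. The difference was -0.62 (SE 0.28, 95% interval -1.22 to -0.03), a 1.54-fold lower mean, with an unadjusted limma p of 0.0403 and an adjusted p of 0.612. The exact permutation test within series gave p = 0.0539. Without any one of 13 of the 20 arrays the unadjusted p exceeded 0.05, with differences from -0.76 to -0.49. The values were -0.33 (SE 0.29) in the first series and -0.91 (SE 0.45) in the second.

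The other Lpl probe, A_52_P257812, reads the plus strand at chr8:71425050-71425109 (mm9), upstream in the transcript of the brighter probe. Its sequence is given because it measures a separate stretch of the same RNA.
Lpl A_52_P257812: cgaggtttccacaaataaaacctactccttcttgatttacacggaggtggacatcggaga

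Over 20 livers both Lpl probes varied together (r = 0.975, a description over arrays that share their RNA). At A_52_P257812 the difference was -0.42 (SE 0.27) with an unadjusted limma p of 0.134, so the direction was shared and the threshold was not reached.

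Lipg was dim. Its probe was well above background in 5 responders and 6 non-responders, and the signal lay between -7.19 and -3.91 in responders, with a median of -5.33, against -5.56 to -4.00 in non-responders, with a median of -4.60. Responders lay on both sides: 5 were below all non-responders and 2 were above all of them. The difference of -0.68 (SE 0.40, 95% interval -1.51 to 0.15) had an unadjusted limma p of 0.103 and an adjusted p of 0.698. It was -1.10 (SE 0.49) in the first series and -0.26 (SE 0.57) in the second. In the first series 1 of 4 responders and 4 of 6 non-responders were above background, and in the second 4 of 6 and 2 of 4. Under normexp correction the sign turned, to 0.30.

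**Figure D2:**
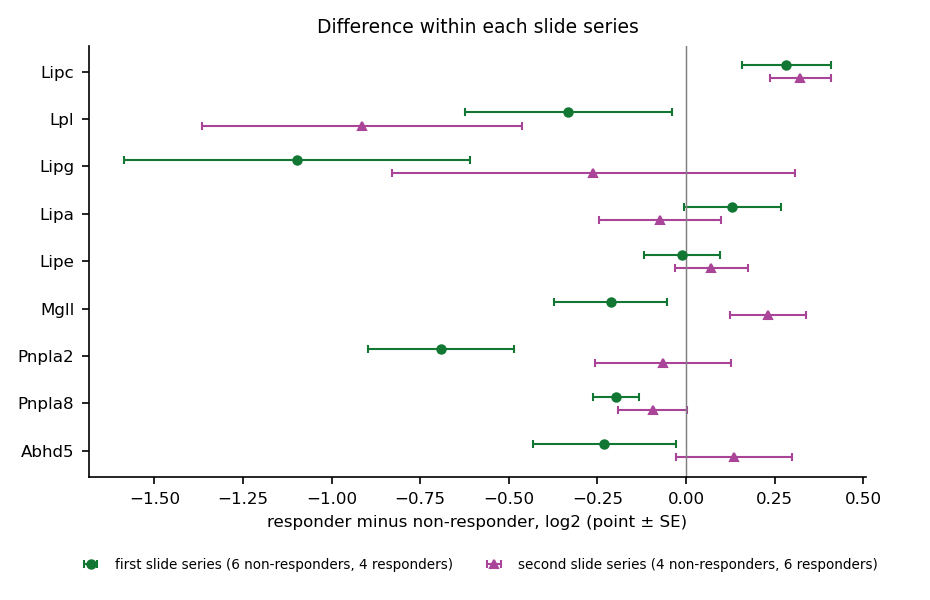
Log2 difference of responders from non-responders with its SE, fitted separately in the first slide series (6 non-responders, 4 responders) and the second (4 non-responders, 6 responders). Lipc lies at 0.28 and 0.32, whereas Pnpla2 lies at -0.69 and -0.06 and Mgll changes sign.

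Of the droplet lipases, Pnpla2 was lower in responders, and Lipe, Mgll and Abhd5 lay within 0.05 of 0. Pnpla2 signal at its brighter probe, A_51_P197213, ranged from 4.25 to 5.12 in non-responders, with a median of 4.54, and from 3.65 to 4.98 in responders, with a median of 4.21. The highest responders reached into the upper part of the non-responder range, while 5 responders were below every non-responder. The difference was -0.38 (SE 0.16, 95% interval -0.71 to -0.05), a 1.30-fold lower mean, with an unadjusted limma p of 0.0278 and an adjusted p of 0.597. The exact permutation test within series gave p = 0.0368.

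The Pnpla2 difference was uneven over the slide series. In the first it was -0.69 (SE 0.21) and in the second -0.06 (SE 0.19). The limma term for this difference between series was 0.63 (SE 0.29) with an unadjusted p of 0.0453 and an adjusted p of 0.505. Over all genes 9.67% had an unadjusted p under 0.05 for that term. Without responder 10, which had the lowest Pnpla2 signal, the overall difference was -0.29 (p = 0.0765, limma, unadjusted), and without responder 3 it was -0.34 (p = 0.0573, limma, unadjusted).

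The second Pnpla2 probe, A_52_P681771, reads the plus strand at chr7:148645100-148645159 (mm9), and its sequence is printed as the independent stretch of this RNA.
Pnpla2 A_52_P681771: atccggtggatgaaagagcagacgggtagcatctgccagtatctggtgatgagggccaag

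At A_52_P681771 the responders ranged from 2.36 to 3.77, with a median of 2.78, and the non-responders from 2.77 to 3.84, with a median of 3.22. Again 5 responders were below all non-responders. The difference was -0.29 (SE 0.18) with an unadjusted limma p of 0.118, and the 2 probes correlated at r = 0.874 over 20 livers.

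Abhd5, the protein that activates Pnpla2 at the droplet surface, ranged from 0.11 to 1.07 in non-responders, with a median of 0.37, and from -0.09 to 0.84 in responders, with a median of 0.31. The groups overlapped, and 5 responders lay on each side of the non-responder means of their series. The difference was -0.05 (SE 0.14, 95% interval -0.33 to 0.24, adjusted limma p = 0.943), and -0.11 (SE 0.13) at its other probe. By slide series the values were -0.23 (SE 0.20) and 0.14 (SE 0.16).

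Lipe signal at A_51_P435366 ranged from -1.12 to -0.44 in non-responders, with a median of -0.79, and from -1.09 to -0.46 in responders, with a median of -0.74. Every responder lay inside the non-responder range. The difference was 0.03 (SE 0.07, 95% interval -0.12 to 0.18, adjusted limma p = 0.926), and -0.02 (SE 0.09) at A_51_P435363, which correlated with the first at r = 0.615.

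Mgll at A_51_P139920 ranged from 4.42 to 5.17 in non-responders, with a median of 4.86, and from 4.39 to 5.24 in responders, with a median of 4.91. One spot, of responder 7, carried the scanner's outlier flag and was left out, so 9 responders entered this fit. The overall difference was 0.001 (SE 0.11, 95% interval -0.23 to 0.23, adjusted limma p = 0.999). Underneath it, the values were -0.21 (SE 0.16) in the first series and 0.23 (SE 0.11) in the second. The limma term between series was 0.45 (SE 0.20), with an unadjusted p of 0.0376 and an adjusted p of 0.487. A second probe, A_52_P609778, varied with the first (r = 0.952, n = 19) and differed by 0.07 (SE 0.13). Another, A_52_P568977, assigned to a different transcript, was well above background in only 3 responders and 2 non-responders and was not tested.

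Pnpla3, a droplet protein related to Pnpla2, was at the limit of detection. Its probe was well above background on 1 array of each group, with signals from -7.10 to -5.03 in responders and from -7.01 to -4.90 in non-responders. It is not well above background in these livers as a group and was not tested.

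Lipa, the acid lipase of the lysosome, did not separate the groups. It ranged from 2.35 to 3.10 in non-responders, with a median of 2.60, and from 2.15 to 3.16 in responders, with a median of 2.59. Responders thus spanned the whole non-responder range, with 1 beyond each end. The difference was 0.03 (SE 0.11, 95% interval -0.21 to 0.26, adjusted limma p = 0.956), with 0.13 (SE 0.14) in the first series and -0.07 (SE 0.17) in the second. The other Lipa probe, A_52_P553471, is annotated to a separate cDNA at the locus, correlated with the first at r = 0.386 and differed by -0.08 (SE 0.17).

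Pnpla8, the membrane phospholipase, gave different answers by probe. At the brightest, A_51_P201105, non-responders ranged from 3.74 to 4.06, with a median of 3.93, and responders from 3.62 to 3.97, with a median of 3.73. There 5 responders were below every non-responder, and 9 of 10 were under the mean of the non-responders on the same slide series. The difference was -0.15 (SE 0.05, 95% interval -0.26 to -0.03), a 1.11-fold lower mean, with an unadjusted limma p of 0.0148 and an adjusted p of 0.542. The exact permutation test within series gave p = 0.00705, and the differences by slide series were -0.20 (SE 0.07) and -0.09 (SE 0.10).

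The other Pnpla8 probes did not repeat this over both series. A_51_P201104, which reads nearby sequence in the same transcript, differed by -0.02 (SE 0.07). That value averages opposite series: all 4 responders of the first lay below every non-responder (-0.22, the difference of series means), and 5 of 6 in the second lay above every one (0.18). The first series thus had the sign of A_51_P201105, and the second did not. A_52_P161339, nearer the start of the transcript, differed by 0.15 (SE 0.11) in the opposite direction. Correlations between the 3 probes over 20 livers were 0.288, 0.257 and -0.247. The mean of all Pnpla8 probes differed by -0.0052. At A_51_P201105 itself the authors' deposited values gave -0.03. The Pnpla8 difference was thus seen at 1 probe, and its size there depended on the processing.

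**Figure D3:**
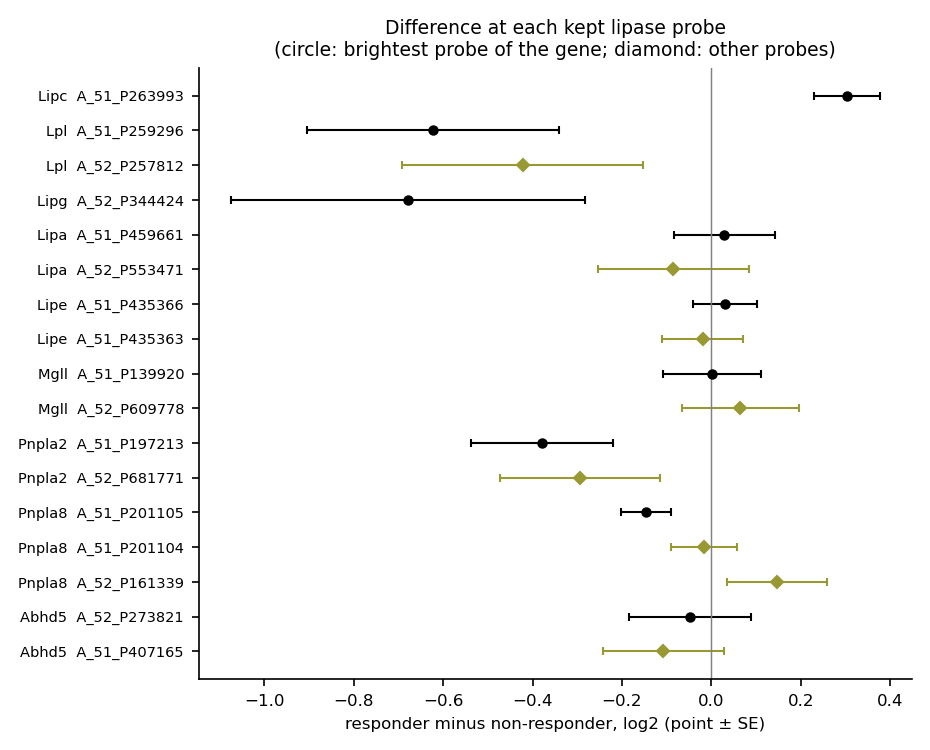
Log2 difference of responders from non-responders with its SE at each of the 17 lipase probes kept for testing. Circles are the brightest probe of a gene and diamonds the other probes: both Lpl probes and both Pnpla2 probes lie below 0, while the 3 Pnpla8 probes lie at -0.15, -0.02 and 0.15.

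Few pairs of lipases were shown to vary together. After removal of the group means within each slide series, 19 of 36 pairs of genes correlated positively, 5 had a raw permutation p under 0.05 by Pearson's r, and 1 pair passed a Benjamini-Hochberg adjusted permutation p of 0.05 by both coefficients. That pair was Lipg and Pnpla2, with Pearson r = 0.81 and Spearman rho = 0.76 over 20 livers (adjusted permutation p = 0.00936 and 0.0346, raw p = 0.00026 and 0.00096). Without the 2 livers farthest from the median of Lipg r was 0.78, and within the slide series it was 0.76 and 0.86. Over the 11 livers in which Lipg was well above background r was 0.61, and the other 9 hold Lipg values at the edge of detection. Mgll correlated with Lipg and with Pnpla2 at 0.59 each, over 19 livers (adjusted permutation p = 0.245 for both). Pnpla2 and its activator Abhd5 correlated at -0.55 (adjusted permutation p = 0.292). Lipc was not close to any of the others, its coefficients lying between -0.36 and 0.08.

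**Figure D4:**
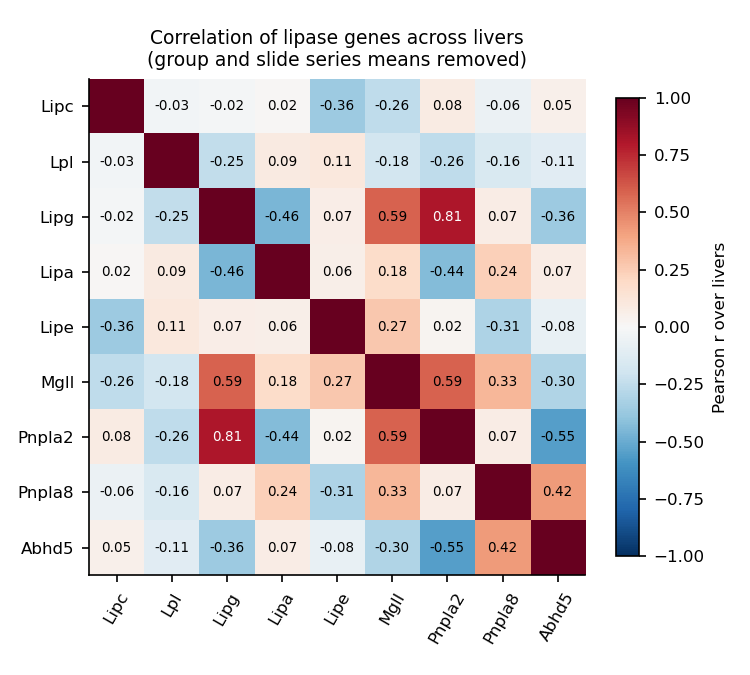
Pearson correlation between the 9 tested lipase genes over livers (20, or 19 for pairs with Mgll) after the mean of each group within each slide series was removed. Lipg and Pnpla2 have the highest coefficient, 0.81, and the row of Lipc lies between -0.36 and 0.08.

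A liver sample also holds other cells, and in whole tissue fewer cells of a type and less RNA per cell cannot be told apart. Markers of stellate cells and fibroblasts were lower in responders for 10 of 12, with a median difference of -0.11 against -0.0032 over all genes. Of the 12, 4 were lower at an unadjusted p under 0.05, against 3.73% of all genes. The collagen genes Col1a1 (-0.56, SE 0.17) and Col1a2 (-0.39, SE 0.13) and the matrix proteoglycan gene Lum (-0.24, SE 0.11) had the smallest p-values of this list. The lower values lay mostly in the second slide series: 6 of 12 markers were lower in the first and 11 of 12 in the second. Over all genes, 53.4% were higher in the first series alone and 44.6% in the second. By series, Col1a1 was -0.22 and -0.90, Col1a2 -0.17 and -0.61, and Lum -0.03 and -0.45. All 12 were well above background on all arrays. The log2 of their summed linear signal was 6.37 to 6.94 in responders and 6.58 to 7.04 in non-responders.

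Lpl followed these markers from liver to liver. The correlation of Lpl with their mean, after removal of group and series means, was r = 0.84 and rho = 0.84 over 20 livers (permutation p = 0.0001 and 0.0002, adjusted p = 0.0045 and 0.0090 over 45 relations of lipases with marker means). It was 0.78 without the 2 livers farthest from the median of the marker mean, and 0.82 and 0.86 within the slide series. No other of the 45 relations passed the adjusted threshold by either coefficient. With the stellate and fibroblast mean as a covariate, a setting added after the data were seen, the Lpl difference was -0.22 (SE 0.17, p = 0.193, limma, unadjusted), Lipc stayed at 0.30 (SE 0.08) and Pnpla2 was -0.44 (SE 0.17). The part of these cells in the Lpl result was not tested.

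**Figure D5:**
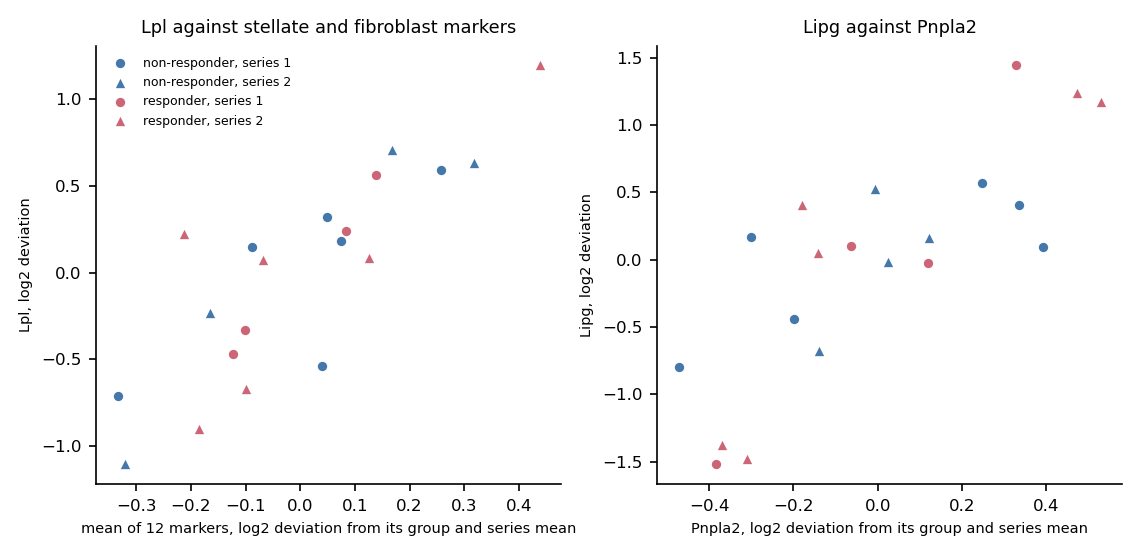
Left, Lpl against the mean of 12 stellate and fibroblast markers; right, Lipg against Pnpla2. Each point is 1 of 20 livers, as the log2 deviation from the mean of its group and slide series, with r = 0.84 on the left and r = 0.81 on the right.

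Of the 12 adipocyte markers, Lep and Adrb3 were not well above background often enough to be tested. The droplet coat gene Plin1 (above background in 3 responders and 8 non-responders) and Retn (2 and 6) entered the test only through the non-responders, where they were higher, so their differences carry no weight here. Of the 8 others, 6 were lower in responders, 5 of them at an unadjusted p under 0.05 (3.73% of all genes in that direction). By p-value the first of these were the droplet fusion gene Cidec (-1.16, SE 0.36) and the fatty acid carrier Fabp4 (-0.53, SE 0.20), although Fabp4 had the smallest difference of the 6. The log2 of the summed linear signal of the tested markers was 7.30 to 8.88 in responders and 7.66 to 8.79 in non-responders. That sum is mostly Car3 and Thrsp, which liver expresses strongly and which were the 2 not lower. Without them it was 2.62 to 4.07 in responders, with a median of 3.55, and 2.99 to 5.29 in non-responders, with a median of 4.35. The adipocyte marker mean, used as a covariate and in the correlations, took in all 10 tested markers, Plin1, Retn, Car3 and Thrsp among them. It thus carries the selection of Plin1 and Retn through 1 group. With this mean as a covariate, Lpl was -0.25 (SE 0.30), Pnpla2 -0.19 (SE 0.17), Pnpla8 -0.18 (SE 0.06) and Lipc 0.35 (SE 0.09). Because of that selection, these values cannot show what adipocytes contribute to the differences. The adipocyte list correlated with Lpl at 0.51, with Pnpla2 at 0.47 and with Abhd5 at -0.54 (adjusted permutation p = 0.317, 0.233 and 0.190). Liver cells can express several of these genes, among them Car3, Thrsp, Plin4, Cidea and Cidec, and the part of adipocytes in the lipase results was not tested. Macrophage markers were lower for 9 of 12 and endothelial markers for 7 of 11. Of these lists 0 and 1 had an unadjusted p under 0.05, against 7.97% of all genes in either direction.

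The partners of the lipases were read from lists of known pathway genes. Among regulators of the secreted lipases, 12 of 22 were higher and 10 lower in responders. At an unadjusted p under 0.05 there was 1 of 22, higher, which is near the 4.24% of all genes in that direction. This was Lmf1, which encodes the lipase maturation factor of the endoplasmic reticulum on which Lpl, Lipc and Lipg depend for folding. Mean Lmf1 signal was 4.59 ± 0.11 for responders against 4.40 ± 0.08 for non-responders (SD, n = 10 per group), which is 0.19 higher (SE 0.05, unadjusted limma p = 0.0013, adjusted p = 0.490). By slide series the Lmf1 difference was 0.22 and 0.17. The other 21 ranged from -0.48 for Angptl4, an inhibitor of Lpl, to 0.24 for Sort1, a sorting receptor. The Lpl anchor Gpihbp1, named for its known role after its value was seen, differed by -0.02 (SE 0.09).

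Receptors that clear remnants and high-density lipoproteins were higher in 5 of 7 and lower in 2. The receptor chaperone Lrpap1 was the 1 of 7 with an unadjusted p under 0.05 (0.13, SE 0.05), against 4.24% of all genes in that direction. The rest ranged from -0.64 for Vldlr to 0.13 for Lrp1.

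Regulators of the droplet lipases were lower in 11 of 17 and higher in 6. By slide series, 12 of 17 were lower in the first and 8 of 17 in the second. The shares of all genes that were higher in these series were 53.4% and 44.6%. Apart from Plin1, which entered through the non-responders only, 10 of 16 were lower, with a median of -0.11. Of those 16, 2 had an unadjusted p under 0.05, both lower, against 3.73% of all genes in that direction. They were Cidec, given above, and the droplet protein gene Cidea (-1.57, SE 0.72). Both are also on the adipocyte list. By slide series Cidec was -1.98 and -0.35, and Cidea -1.95 and -1.20. The other 14 ranged from -0.69 for Plin4 to 0.18 for Cideb. The Pnpla2 inhibitor G0s2, chosen for its role after its value was seen, differed by -0.48 (SE 0.44). The hepatic droplet coat Plin2, chosen likewise, differed by -0.15 (SE 0.25). Both changed sign between the slide series, with -1.24 and 0.28 for G0s2 and -0.33 and 0.04 for Plin2.

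On the list for lysosomal lipid degradation, the setting of Lipa, 11 of 21 genes were higher and 10 lower, with a median of 0.0075. Only Soat1, 1 of 21, had an unadjusted p under 0.05 (-0.26, SE 0.12), which is near the 3.73% of all genes in the lower direction. The other 20 ranged from -0.12 for Ctsl to 0.17 for Soat2. Soat1 and Soat2 esterify cholesterol and are not themselves genes of lysosomal degradation. Other hydrolases of neutral lipids and phospholipids were higher in 18 of 30 and lower in 12. Against 4.24% of all genes, 3 of the 30 were higher at an unadjusted p under 0.05. These were the lysophospholipid hydrolase Abhd12 (0.20, SE 0.06), the carboxylesterase Ces3b (0.14, SE 0.05) and the fatty acid amide hydrolase Faah (0.17, SE 0.07). None of the genes on these lists passed the adjusted threshold.

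The genes most like 4 of the lipases were sought among 13592 named genes, by Pearson r over 20 livers after removal of group and series means, as a description. Lipc was most like Slc25a3 (0.78), Srgap3 (0.75) and Myl12b (0.75), whose fitted differences were 0.06 (SE 0.07), 0.01 (SE 0.21) and -0.03 (SE 0.06). Lpl was most like Lgi2 (0.92), Fstl1 (0.90) and Rbp7 (0.86), with -0.43 (SE 0.22), -0.24 (SE 0.11) and -0.52 (SE 0.54). Pnpla2 was most like Nrg4 (0.96), Por (0.95) and Rhbdd2 (0.94), with -0.36 (SE 0.48), -0.45 (SE 0.27) and -0.08 (SE 0.21). Lipa was most like Psen2 (0.87), Commd7 (0.85) and Ccni (0.84), with 0.07 (SE 0.12), -0.03 (SE 0.14) and -0.05 (SE 0.08). The coefficients of Lipc with its nearest genes were thus lower than those of the other 3 lipases with theirs.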

How the data were processed

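Liver RNA was labelled with Cy3 and hybridised to Agilent arrays, per the labels' protocols. The authors deposited the scanner output of Feature Extraction, whose version is 10.5.1.1 in the file headers but 9.1 in the submitters' processing notes. Its spot intensity is on a linear scale, background-subtracted per the file headers and not scaled between arrays. The authors' deposited value table, also of intensity, was used as an alternative, with its making not given in the sources used here.

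Control and outlier-flagged spots were left out. Values were log2 of the processed signal minus the 75th percentile of the array (linear signal 280.1 to 657), and 55.8% to 71.2% of spots were well above background, none saturated. The number of arrays limits the precision. Probes had to stand well above background in 5 or more arrays of 1 group, which 26176 did, and each gene was read by its brightest, giving 17200 rows. Symbols came from the RefSeq table of GRCm38.p6, used for names only, and array positions are mm9. The comparison used limma 3.58.1 (R 4.3.3), with slide series as a term and Benjamini-Hochberg adjustment at 0.05. The 20 arrays lay on 13 slides, 3 of them shared by the groups, with a within-slide correlation of 0.0367. Single values were also tested by two-sided permutation (100000 resamples for correlations). The fit was tested on simulated data.

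The lipases, lists and tests were chosen with earlier results of these data known. Named were all 10 lipases, pathway genes at an unadjusted p under 0.05 (at most 4 of a list), up to 3 markers of a list with at least 3 such genes, and the 3 genes most like each of 4 lipases; list extremes and genes said to be chosen later fall outside that rule. Alternatives covered background correction, normalization, filters, the series term, replicate and slide blocks, each series alone, weights, variance, probes, marker covariates and leaving out each array.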

Additional observations from a re-analysis of the deposited data

Results flagged for a closer look

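Pnpla8 at probe A_51_P201105 was highest among responders in responder 9, at 3.97 against 3.80 in the next. The gap is 0.492 of the whole range of the 10 responders, above Dixon's 95% critical value for groups of 10. Without that liver the difference was -0.17, the largest of those with 1 array left out. Chance marks about 1 in 20 groups in this way.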

How the results depend on the processing

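No gene passed the adjusted threshold under any alternative run. Lipc stayed higher in all 18 alternatives (0.09 to 0.35), at an unadjusted limma p under 0.05 in 17. Lpl (-0.91 to -0.22), Pnpla2 (-0.82 to -0.06) and Pnpla8 (-0.58 to -0.0052) stayed lower, at that p in 11, 15 and 12 of 18. The 1371 genes at an unadjusted p under 0.05 became 401 with normexp, 896 with plain subtraction and 2134 with every probe as a row, and were 1111 to 1673 with 1 array left out. The 4 lipases at that p became 2 with normexp, the authors' values or the adipocyte covariate, and 1 in the second series alone or with all probes averaged. With 1 array left out they were 2 (without responder 10) to 5 (without responder 2). The adipocyte covariate carries the selection of Plin1 and Retn through 1 group, so its values decide nothing about adipocytes.

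Signs turned only for small or dim values. Lipg was 0.30 with normexp. Lipa was -0.31 with normexp, -0.012 without the series term, -0.073 in the second series, -0.028 with probes averaged and -0.076 with the adipocyte covariate, and -0.028 to 0.11 with 1 array left out. Lipe was -0.011 in the first series. Mgll was -0.54 with normexp, -0.0088 with plain subtraction, -0.0026 with quantile normalization, -0.034 in the authors' values, -0.00031 with slide as a random block, -0.21 in the first series, -0.027 with array weights, -0.00055 with the pancreatic and -0.068 with the stellate covariate, and -0.043 to 0.065 with 1 array left out. Abhd5 was 0.14 in the second series, 0.030 with array weights, and -0.098 to 0.011 with 1 array left out. The causes were not tested. Under normexp the interquartile range of the signal of responder 1 fell to 0.03, so that setting flattened some arrays.

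Replicate numbers are not known to pair the samples: 6 of 10 pairs had r over 0.1 (-0.23 to 0.59), and 3 responders correlated best with their own number. With the replicate block 1829 genes had an unadjusted p under 0.05 and none passed the adjusted one. Mgll was then -0.064, Abhd5 0.031, Lipg -0.89 (limma, unadjusted p = 0.0191) and Pnpla8 -0.14 (limma, unadjusted p = 0.0646). Dim signal limits Lipg, Pnpla3 and the dimmest Mgll probe.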

Other observations

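Transcription factors and coactivators known to act on lipase genes were higher in responders for 10 of the 18 that could be tested and lower for 8, with a median difference of 0.013. Of these, 2 had an unadjusted limma p under 0.05, both lower, against 3.73% of all genes in that direction. They were the coactivator Ppargc1a (-0.46, SE 0.20, adjusted limma p = 0.604) and the glucocorticoid-induced factor Klf15 (-0.37, SE 0.17, adjusted limma p = 0.611). The other 16 ranged from -0.46 for Esr1 to 0.32 for Srebf1.

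Lipases of the exocrine pancreas were detected in some livers. The pancreatic lipase gene Pnlip was well above background in 6 responders and 8 non-responders, and Cel, the bile-salt-activated lipase, in all livers. The log2 of the summed linear signal of 5 pancreatic lipase genes ranged from -3.17 to 7.10 in responders and from -2.91 to 7.15 in non-responders. All 5 had a lower mean in responders, none at an unadjusted limma p under 0.05, with differences from -1.19 (SE 1.96) for Pnlip to -0.28 (SE 1.16) for Pnliprp2. Pancreatic acinar markers also had a wide range, from -0.96 to 9.19 in responders and from -0.35 to 9.13 in non-responders. That list holds Pnlip and Cel too, so the ranges rest partly on the same probes. All 12 tested acinar markers were lower in responders, with a median of -0.95 and 0 at an unadjusted limma p under 0.05.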
